A study of Mus musculus with 12 samples.

Results

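A set of 10 genes for repressors of the basic helix-loop-helix (bHLH) class was followed in spiral ganglion neurons, the auditory neurons of the cochlea, with and without a conditional deletion of the transcription factor gene Isl1. The set holds 10 of the 25674 genes in the count table. Helt and Msc were chosen by their near-complete loss of counts in the Isl1CKO libraries against controls, so their values in this comparison are a description with no test. The other 8, Hes1, Hes5, Hes6, Hey1, Hey2, Heyl, Bhlhe40 and Bhlhe41, were taken by family. Of the 10 genes, 6 passed the filter on low counts and 4 did not (Hes5, Hey2, Heyl and Bhlhe40).

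Each of the 12 libraries was made from 100 neurons of E14.5 mouse embryos sorted for the red reporter tdTomato. A sample came from the 2 ears of an embryo of either sex, and the embryos came from 4 litters on a mixed C57BL/6/sv129 background. The 6 controls had the genotype Neurod1Cre;Rosa26tdTOM and the 6 Isl1CKO samples Neurod1Cre;Isl1loxP/loxP;Rosa26tdTOM, so both groups carry the Cre transgene and the reporter and differ in the floxed Isl1 alleles. Cre is driven by a Neurod1 BAC transgene, which is active in other neurons besides those of the spiral ganglion. The numbered samples carry a tag for technical replicates, whereas the design text speaks of biological ones. Sex-linked transcripts, given below, differ between samples of each group, so neither group came from the same embryo throughout. Which samples might share an embryo is not stated, and if some do, p-values measure technical spread in part.

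Proteins of the bHLH class dimerise through a helix-loop-helix and contact DNA through a basic stretch beside it. HES and HEY proteins are the best known nuclear effectors of Notch signalling: Notch activation induces their genes, and the proteins, with Groucho-type TLE or other corepressors, silence proneural genes and keep progenitors from differentiating. HES6 departs from this scheme, since it is made in differentiating neurons and opposes HES1. HELT is a HES/HEY-related repressor known from GABAergic neurons of the midbrain, and MSC (musculin, also MyoR) is a repressor known from facial muscle precursors and lymphocytes that competes with activating bHLH factors for their E protein partners.

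The libraries held 11895603 to 13857480 counts, and 3 counts, taken as the floor, were worth 0.219 to 0.250 CPM (counts scaled by effective library size). These floors cover counting error only, because PCR copies without molecular identifiers are not independent molecules. Isl1 itself, counted over the whole gene, stood at 1050 to 1589 CPM in Isl1CKO libraries and 1171 to 1777 CPM in controls and did not separate the groups (log2 fold change -0.15, SE 0.11, edgeR adjusted p = 0.460). Whole-gene counts cannot show loss of the floxed segment, so the genotype rests on the labels. Xist was at 398 and 271 CPM in control 3 and 4 and at most 0.366 CPM in the other controls. It was at 185 CPM in Isl1CKO 6 and 0.317 CPM in Isl1CKO 1. In 3 libraries, Isl1CKO 2, 3 and 5, Xist (62.9 to 132 CPM) and the mean of 4 Y-linked genes (35.7 to 87.3 CPM) were both present, which goes against a source in 1 embryo. These are called the mixed-sex libraries. The fits of Helt, Msc, Hes5, Hes6 and Hey1, of some list genes and of some counts are also given without them. The other results use all 12 libraries. Neuronal markers were all detected, but their summed level was 10746 to 12552 CPM in Isl1CKO libraries and 14480 to 16547 CPM in controls, and the list mean was lower by the exact permutation test (two-sided, adjusted p = 0.00866 over 8 lists). Of its 10 genes, Nefl, Nefm, Elavl4 and Gata3 fell, Stmn2 rose and 5 did not pass. Schwann cell and satellite glia markers summed to 16.5 to 485 CPM in Isl1CKO libraries and 9.69 to 211 CPM in controls, and dividing cell markers to 104 to 463 and 98.7 to 235 CPM; neither list mean passed the test (exact permutation test, two-sided, adjusted p = 0.312 for both, over 8 lists). The mesenchyme marker list was higher in Isl1CKO libraries (72.0 to 122 against 38.4 to 83.7 CPM in sum; exact permutation test, two-sided, adjusted p = 0.00866, the smallest it allows here being p = 0.00216 unadjusted), where Tbx18 and Col3a1 rose. Pou3f4, the most abundant of them in controls, averaged 27.4 CPM in Isl1CKO libraries and 52.9 CPM in controls (edgeR adjusted p = 0.143), and Col1a1, Dcn, Lum and Pdgfra averaged under 1 CPM in both groups. Macrophage markers reached 742 CPM in sum, hair cell, otic epithelium and endothelium lists at most 30.0 CPM, and none of these 4 lists passed the same test (adjusted p = 0.312). The part of these other cells in the results that follow was not tested, except by the glia covariate and the correlations with glia and dividing cell markers given last. Because these are bulk samples, fewer cells of a type and less RNA per cell cannot be told apart.

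Helt (ENSMUSG00000047171, GRCm38 chr8:46292039-46294671, minus strand) was present in every control and nearly gone from every Isl1CKO library. Control replicates 1 to 6 had 28.4, 66.1, 54.9, 49.8, 44.7 and 58.1 CPM. Isl1CKO replicates 1 to 3 had 0.238, 0.776 and 0.226 CPM, from 3, 10 and 3 counts, and replicates 4 to 6 had 0 counts. The lowest control was therefore far above the highest Isl1CKO library, and 5 of the 6 Isl1CKO libraries lay at or under the floor. The Isl1CKO mean was 0.410% of the control mean, 16 counts in all against 3923. The fitted log2 fold change was -7.89 (SE 0.56), and since so few counts remain its size depends on single libraries: it was -8.97 without Isl1CKO 2, the library with 10 counts, and -9.19 without the mixed-sex libraries.

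Msc (ENSMUSG00000025930, chr1:14753346-14755992, minus strand) was also lost almost entirely but stayed measurable. Its controls had 205, 197, 203, 184, 129 and 252 CPM in replicates 1 to 6. The Isl1CKO replicates had 13.8, 3.49, 6.77, 6.95, 3.36 and 1.37 CPM. No Isl1CKO library was at or under the floor, the smallest count being 18, so a remnant of Msc was detected in all 6. This remnant ran from 0.704% of the control mean in Isl1CKO 6 to 7.07% in Isl1CKO 1, with 3.05% for the group mean. Most Msc was left in Isl1CKO 1 and most Helt in Isl1CKO 2, which had the third lowest Msc. The log2 fold change of Msc was -5.03 (SE 0.40), and -4.73 without the mixed-sex libraries. Msc shares 539 exon bases with Gm9947 on the opposite strand, and with strand use not stated their reads cannot be told apart; Gm9947 went from 6.99 ± 3.20 to 0.252 ± 0.364 CPM (SD, n = 6). Among all tested genes, 3.65% had all 6 Isl1CKO libraries below all 6 controls.

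**Figure D1:**
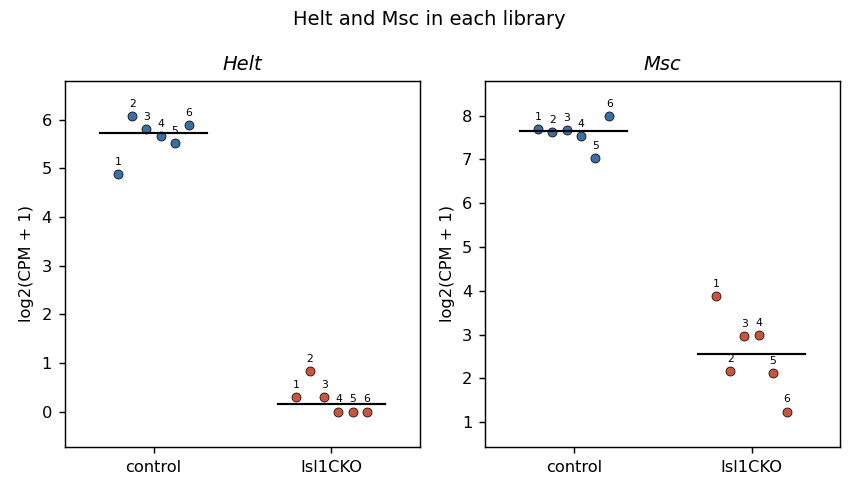
Level of Helt (left) and Msc (right) in each library as log2(CPM + 1), with controls in blue, Isl1CKO in red, replicate numbers above the points and the group median as a line. The groups are far apart for both genes; Helt is at 0 in Isl1CKO replicates 4 to 6, while Msc keeps a low level in all 6.

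The genes whose levels followed Helt and Msc most closely were looked up among 9912 tested genes at or over a mean of 3 on the log2 scale, by Pearson's r of log2(CPM + 1) over the 12 libraries. All were genes that were lower in Isl1CKO, as the difference between groups fixes most of such an r, so r after centring on the group means is given beside it. For Helt they were Epha5, an ephrin receptor (r = 0.992, centred 0.608), the pseudokinase gene Peak1 (0.986, centred 0.574) and Laptm4b, a lysosomal membrane protein gene (0.984, centred 0.106). For Msc they were the adhesion molecule gene Alcam (0.989, centred 0.832), the netrin-G gene Ntng1 (0.985, centred 0.736) and the glutamate receptor subunit gene Grin3a (0.982, centred 0.722). Helt and Msc themselves reached 0.967 over the 12 libraries and 0.125 once the group means were removed. These r values describe libraries that share a genotype contrast and carry no test.

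Of the 3 HES genes, Hes6 (ENSMUSG00000067071, chr1:91411483-91414038, minus strand) was by far the most abundant and it rose in the Isl1CKO libraries. Control replicates 1 to 6 had 209, 266, 245, 235, 299 and 288 CPM. Isl1CKO replicates had 317, 390, 304, 360, 469 and 440 CPM. Every Isl1CKO library was above every control, although the gap between the lowest of the former and the highest of the latter was narrow (304 against 299 CPM). The group mean was 380 ± 65.8 CPM in Isl1CKO libraries and 257 ± 33.8 CPM in controls (SD, n = 6). The log2 fold change, 0.56 (SE 0.12), passed edgeR's quasi-likelihood test over all genes (Benjamini-Hochberg adjusted p = 0.00561). All 6 Isl1CKO libraries stood above all 6 controls for 3.13% of tested genes. With the glia marker level as a covariate it came to 0.51 on the log2 scale (edgeR adjusted p = 0.0174), and without the mixed-sex libraries it was 0.53 (edgeR adjusted p = 0.0412).

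Hes1 and Hes5, the HES genes that Notch induces in progenitors and glia, were both at low levels, and Hes5 was near the floor. Hes5 (ENSMUSG00000048001, chr4:154960923-154962371, plus strand) had 1.66, 0.592, 2.84, 0.963, 0.555 and 1.24 CPM in controls and 0.317, 0, 0, 0.0747, 0.511 and 0.229 CPM in Isl1CKO libraries. Every Isl1CKO library was thus below every control, but by little: the highest of the former and the lowest of the latter both held 7 counts. Hes5 did not pass the filter. It is therefore not among the tested genes, of which 3.65% had all 6 Isl1CKO libraries below all 6 controls. The share among genes that failed the filter was not counted. Fitted without a filter its log2 fold change was -2.73 (SE 0.88), which did not pass the threshold (edgeR adjusted p = 0.0892). Without the mixed-sex libraries Hes5 passed the filter, and in that filtered fit it stood at -2.61 (edgeR adjusted p = 0.144). Hes1 had 0 to 2.54 CPM in controls (median 0.763) and 0.602 to 3.81 CPM in Isl1CKO libraries (median 1.29), with overlapping groups and a log2 fold change of 0.93 (SE 0.88, edgeR adjusted p = 0.580). Hes5 shares 433 exon bases with Gm20421 on the opposite strand, which has no row of its own in the table.

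The HEY genes encode close relatives of HES proteins that are known from vessels, heart and the organ of Corti. Hey1 (ENSMUSG00000040289, chr3:8663359-8667256, minus strand) was the one HEY gene at a clear level in these neurons. Its controls had 10.5, 12.1, 15.6, 19.0, 11.0 and 8.49 CPM and its Isl1CKO libraries 11.0, 24.1, 24.2, 29.1, 27.1 and 16.2 CPM. Of the Isl1CKO libraries 4 were above all controls, while Isl1CKO 1 and 6 lay within the control range. The log2 fold change was 0.78 (SE 0.26), just outside the threshold (edgeR adjusted p = 0.0740). It passed without Isl1CKO 1 (0.91, edgeR adjusted p = 0.0230) or without control 4 (0.92, edgeR adjusted p = 0.0436), and was 0.55 without the mixed-sex libraries (edgeR adjusted p = 0.466). The call on Hey1 therefore turns on single libraries, and the DESeq2 Wald test also called it (adjusted p = 0.0314).

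Heyl and Hey2 were at or near 0 in most libraries. Heyl reached 5.59 and 5.03 CPM in Isl1CKO 2 and 5, and 6.89 and 1.43 CPM in control 4 and 5, and no other library was above 0.296 CPM. The summed glia marker level was 485, 396, 112 and 211 CPM in those 4 libraries, against 9.69 to 214 CPM in the other 8; its part in Heyl was not tested. In Isl1CKO 1 the glia markers were at 214 CPM and Heyl at 0. Hey2 was above the floor in Isl1CKO 2 (0.466 CPM) and in control 3 and 5 (0.334 and 2.14 CPM) and had 0 counts in 7 libraries. Neither gene passed the filter. Endothelial and pericyte markers, another known source of HEY genes, were highest in Isl1CKO 3, at 30.0 CPM in sum, where Heyl and Hey2 both had 0 counts. They were next highest, at 10.4 CPM, in Isl1CKO 2, the Isl1CKO library with the highest Heyl and Hey2; their part was not tested.

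Bhlhe40 and Bhlhe41 (DEC1 and DEC2) encode repressors that dampen the circadian clock, and Bhlhe40 also responds to low oxygen. Bhlhe41 varied widely within both groups, from 0.250 to 4.15 CPM in controls (median 2.37) and from 0.602 to 4.12 CPM in Isl1CKO libraries (median 1.72). The log2 fold change was -0.0091 with an SE of 0.70 (edgeR adjusted p = 0.995), so at this spread differences of either sign could be missed, and not only small ones. Bhlhe41 shares 1280 exon bases with Gm43909 on the opposite strand. Bhlhe40 did not pass the filter: 5 of 6 Isl1CKO libraries and 3 of 6 controls held at most 3 counts, and its highest level was 1.66 CPM in control 1. Of the 8 family members, 4 were tested and 1, Hes6, was called, where 10.2% of all 14813 tested genes were called in either direction (5.01% higher and 5.19% lower). With 4 genes tested, a single call says little about the family.

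**Figure D2:**
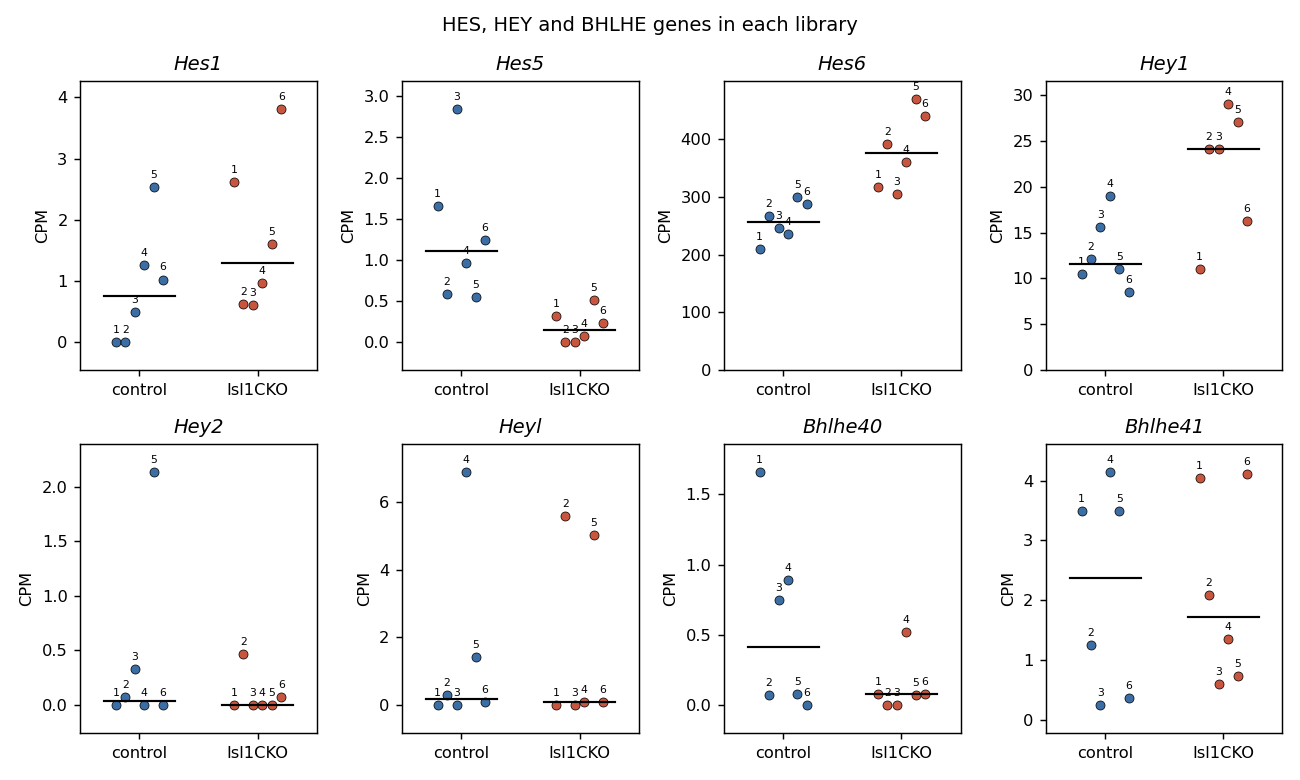
Level in CPM of the 8 HES, HEY and BHLHE genes in each library (controls blue, Isl1CKO red, replicate numbers above points, line at the group median), each panel on its own axis. The groups do not overlap for Hes6 and, at a level near the floor, Hes5; high values of Heyl come from Isl1CKO 2 and 5 and control 4.

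Levels of different genes were compared per kilobase of exon. In controls Hes6 led at 142 ± 18.7 CPM per kb, followed by Msc at 76.6 ± 15.6, Helt at 25.0 ± 6.45 and Hey1 at 3.91 ± 1.17 CPM per kb (SD, n = 6). The ranges of these 4 genes did not overlap in controls. Hes5 came next at 0.960 ± 0.628 CPM per kb, its highest library below the lowest of Hey1 and its range overlapping that of Hes1. After it, Hes1, Bhlhe41, Heyl, Bhlhe40 and Hey2 had means of 0.0925 to 0.435 CPM per kb with ranges that overlapped. In Isl1CKO libraries the order was Hes6 at 210 ± 36.4, Hey1 at 6.72 ± 2.11 and Msc at 2.34 ± 1.73 CPM per kb (SD, n = 6), and the ranges of Hey1 and Msc overlapped. Helt went from the third to the eighth place.

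As a share of the summed level per kilobase of the 10 genes, Hes6 made up 56.9% ± 5.32 in controls and 95.0% ± 1.08 in Isl1CKO libraries (SD, n = 6). Msc made up 30.7% ± 5.61 and 1.16% ± 0.981, and Helt 9.92% ± 2.01 and 0.0493% ± 0.0667. The sum itself was 250 ± 25.3 CPM per kb in controls and 221 ± 36.1 in Isl1CKO libraries, with overlapping ranges of 216 to 291 and 179 to 271. Helt and Msc were chosen for their fall, so the direction of these shares, the rise of Hes6 included, follows largely from the choice of genes. The shares are a description and carry no test.

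**Figure D3:**
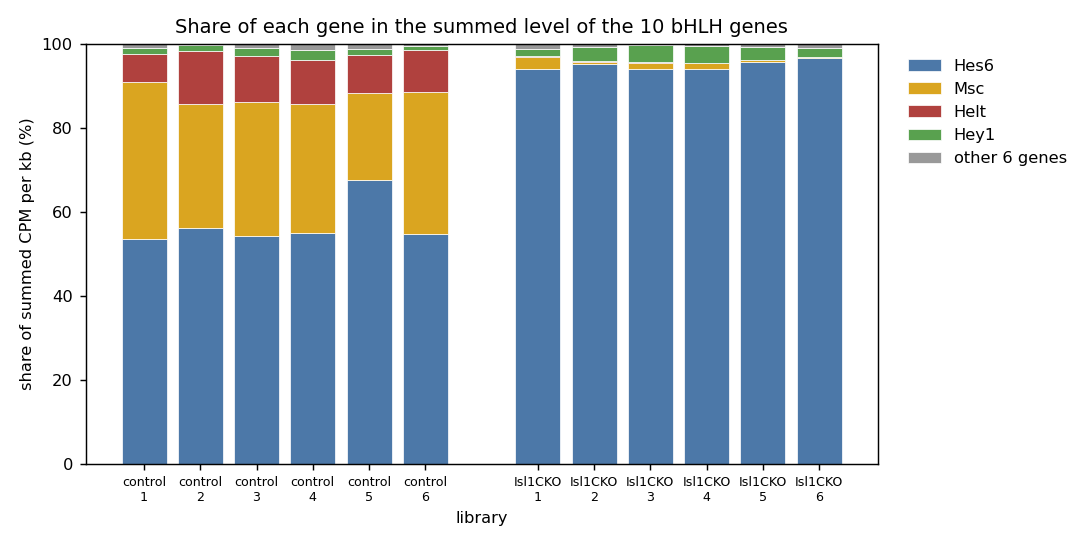
Share of each gene in the summed CPM per kilobase of exon of the 10 bHLH genes, 1 bar per library, in percent. Controls are made up of Hes6, Msc and Helt with small amounts of Hey1, and Isl1CKO libraries are at least 94.1% Hes6.

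Promoter sequences were available for 5 of the 10 genes (Helt, Hes5, Hes6, Hey2 and Bhlhe41) from RefSeq on GRCm38.p6. The 250 bases before the start site are printed for Helt, the gene that fell furthest, for Hes6, which rose, and for Hes5, the Notch target whose groups did not overlap. Capitals mark matches on either strand to GTGGGAA (a core of the site bound by the Notch effector RBPJ), CACNAG (the N-box of HES proteins), CACGTG (an E-box), CTAATG (a site known for ISL1) and TATAAA (the TATA box). The Helt stretch lies at chr8:46294672-46294921 on the minus strand, that of Hes6 at chr1:91414039-91414288 on the minus strand, and that of Hes5 at chr4:154960673-154960922 on the plus strand.
Helt: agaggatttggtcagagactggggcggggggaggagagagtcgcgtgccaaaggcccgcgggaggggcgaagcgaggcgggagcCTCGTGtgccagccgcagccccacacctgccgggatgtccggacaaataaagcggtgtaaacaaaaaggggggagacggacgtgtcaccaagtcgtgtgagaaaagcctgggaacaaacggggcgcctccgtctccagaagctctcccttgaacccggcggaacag
Hes6: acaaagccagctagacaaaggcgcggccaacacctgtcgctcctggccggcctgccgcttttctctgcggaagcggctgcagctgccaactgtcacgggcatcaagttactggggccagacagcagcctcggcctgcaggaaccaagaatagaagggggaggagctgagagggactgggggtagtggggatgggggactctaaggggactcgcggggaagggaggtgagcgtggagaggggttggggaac
Hes5: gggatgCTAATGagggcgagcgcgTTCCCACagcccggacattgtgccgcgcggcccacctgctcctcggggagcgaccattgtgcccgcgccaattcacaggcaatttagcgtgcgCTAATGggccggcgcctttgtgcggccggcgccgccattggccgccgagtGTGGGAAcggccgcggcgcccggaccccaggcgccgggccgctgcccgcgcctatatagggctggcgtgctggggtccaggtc

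In these windows the Hes5 promoter held 2 matches to GTGGGAA, at bases -226 to -220 and -83 to -77 from the start site, and 2 matches to CTAATG, at -244 to -239 and -133 to -128. Helt held a single match, to CACNAG on the opposite strand at -166 to -161, and neither CTAATG nor GTGGGAA. The printed Hes6 window held none of the 5 motifs, whereas its second start site in the table had TATAAA at -28 to -23 and CACNAG at -237 to -232. Hey2 held GTGGGAA and Bhlhe41 held CACGTG. Among all 32851 promoter windows of the same length, 5.42% held GTGGGAA, 36.7% CACNAG, 6.02% CACGTG, 6.36% CTAATG and 12.4% TATAAA. The median GC content of all windows was 52.4%, while the windows of the members had 63.6% to 73.6%. These shares were not matched for GC content. No binding was measured here, and a match of letters is not a site.

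The genes around these repressors were read from lists of relatives, partners and targets, beside the 10.2% of all tested genes that were called and their median log2 fold change of 0.0045. In the Notch pathway, 33 of 38 listed genes were tested, 3 rose and 3 fell (median -0.013). The ubiquitin ligase gene Neurl1a, which acts on Notch ligands, went from 0.389 ± 0.294 to 7.12 ± 3.09 CPM (SD, n = 6; log2 fold change 4.16, SE 0.56, edgeR adjusted p = 1.86e-04). The protease gene Adam17 rose (0.68, edgeR adjusted p = 0.0114) and Dtx3, of the deltex family, fell (-0.46, edgeR adjusted p = 0.0122). The receptor genes Notch1 and Notch2 averaged 1.90 and 2.36 CPM in Isl1CKO libraries and 2.07 and 3.07 CPM in controls, and Rbpj, which carries the Notch signal to HES and HEY genes, 49.4 and 51.0 CPM; these 3 were picked to show the level of the pathway's core. The pathway count was 3 without Isl1CKO 5, 3 with the glia marker level as a covariate and 1 without the mixed-sex libraries, where Adam17 and Dtx3 lost their calls (edgeR adjusted p = 0.0646 and 0.159). Adam17 shares 311 exon bases with Iah1 on the opposite strand, and Neurl1a shares 690 with AC132288.2 on the same strand.

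Of 15 listed corepressor genes all were tested, 2 rose and 13 did not pass (median -0.0072). Tle6, a divergent TLE relative, went from 5.04 ± 2.90 to 24.6 ± 8.85 CPM (SD, n = 6; log2 fold change 2.28, SE 0.45, edgeR adjusted p = 0.00387), with no overlap between groups. Tle2 went from 25.1 ± 5.31 to 44.3 ± 10.6 CPM (SD, n = 6; 0.82, SE 0.19, edgeR adjusted p = 0.0109). The ID proteins lack a basic stretch and hold E proteins away from DNA. Of the 4 ID genes, Id4 fell from 42.1 ± 4.89 to 14.6 ± 7.22 CPM (SD, n = 6; -1.53, SE 0.27, edgeR adjusted p = 0.00150), and Id1, Id2 and Id3 did not pass (edgeR adjusted p = 0.621, 0.132 and 0.720). Hes7, the one other HES gene with a row in the table, averaged 0.0635 CPM in Isl1CKO libraries and 0.0927 CPM in controls and was not tested.

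The list of neural bHLH activators, the class that HES and HEY proteins hold down in progenitors, held 21 genes. Of these 9 were tested, 5 rose and 1 fell (median 1.07). Not every listed gene encodes an activator. Nhlh2, made in young postmitotic neurons, went from 429 ± 61.4 to 904 ± 109 CPM (SD, n = 6; log2 fold change 1.07, SE 0.10, edgeR adjusted p = 8.66e-06). Neurod6 went from 122 ± 28.5 to 262 ± 72.6 CPM (SD, n = 6; 1.11, edgeR adjusted p = 0.00174). Bhlhe22, which encodes a repressor although it stands in this list, fell from 19.7 ± 8.35 to 3.83 ± 1.98 CPM (SD, n = 6; -2.36, edgeR adjusted p = 9.15e-04). Of the 3 E protein genes, whose products pair with these activators and with MSC, Tcf4 rose by 0.71 on the log2 scale (edgeR adjusted p = 0.00951). Tcf12 rose by 0.46 (edgeR adjusted p = 0.00448) and did not pass when the mixed-sex libraries were left out (edgeR adjusted p = 0.0610). Of 18 mesodermal bHLH genes, the class that MSC belongs to, Scx alone was tested, at 0.380 CPM in Isl1CKO libraries and 1.64 CPM in controls (-2.08, edgeR adjusted p = 0.0506). The mesodermal list gave 1 call without Isl1CKO 3, without the mixed-sex libraries, with the DESeq2 Wald test and with limma-voom, and 2 calls with no filter.

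The list of GABAergic genes was read because HELT is known from GABAergic neurons. The GABA synthesis genes Gad1 and Gad2 averaged at most 0.254 CPM in either group, about the level of the floor. Of 6 tested genes of the list, 3 fell (median -0.998). The list gave 2 calls with the glia marker level as a covariate and 2 without the mixed-sex libraries. It gave 4 with the DESeq2 Wald test and with limma-voom, and 2 to 4 with 1 library left out. Gata3, which is also a factor of spiral ganglion neurons, went from 1474 ± 257 to 225 ± 174 CPM (SD, n = 6; log2 fold change -2.71, SE 0.57, edgeR adjusted p = 0.00961). Abat, which breaks GABA down, fell by 0.99 on the log2 scale (edgeR adjusted p = 0.00387). Gata3 shares 155 exon bases with Gm13256 on the opposite strand and 77 with 9230102O04Rik on the same strand.

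Clock and hypoxia genes, the settings in which Bhlhe40 and Bhlhe41 are best known, gave 1 call each. Rorb, an activator of clock genes, went from 2.73 ± 1.12 to 11.3 ± 5.56 CPM (SD, n = 6; log2 fold change 2.04, edgeR adjusted p = 0.00705) among 15 tested clock genes with a median of -0.21. Ddit4, induced by low oxygen and other stress, had 11.3 to 16.3 CPM in controls and 9.94 to 48.2 CPM in Isl1CKO libraries (log2 fold change 1.28, edgeR adjusted p = 0.00849) among 9 tested hypoxia genes with a median of 0.090. Without control 1 the hypoxia list gave 2 calls.

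**Figure D4:**
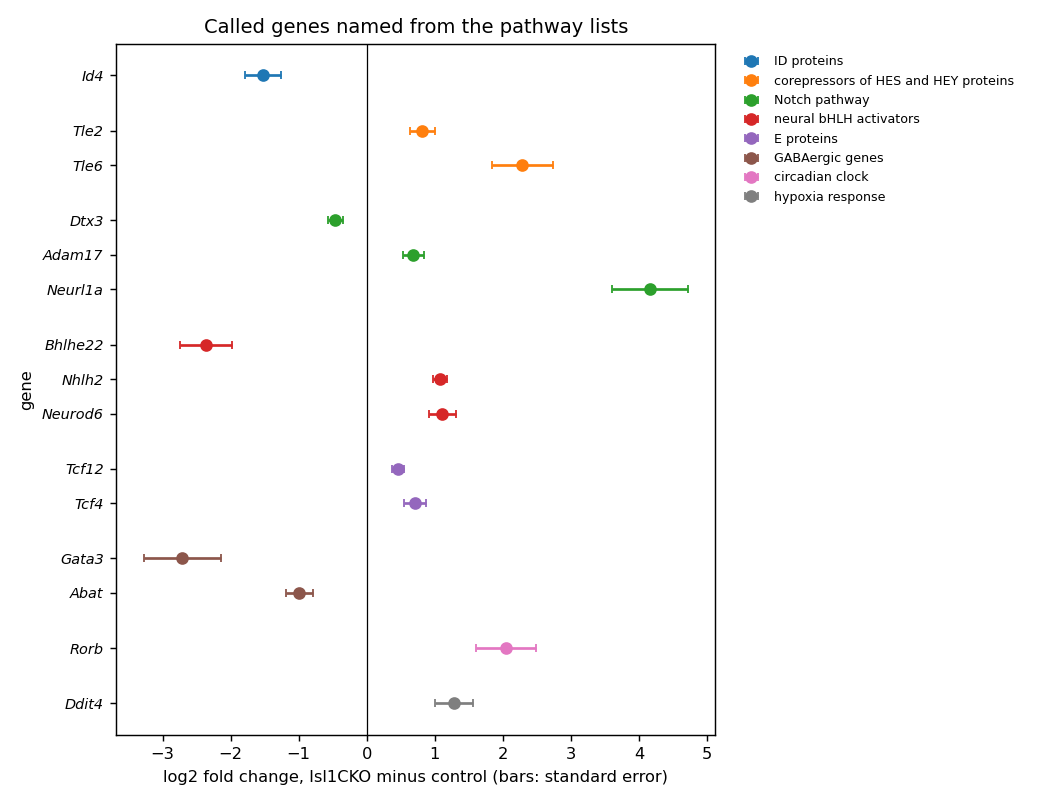
Log2 fold change (Isl1CKO minus control) with its standard error for the called genes named from the lists, coloured by list. Neurl1a has the largest rise, at 4.16, and Gata3 the largest fall, at -2.71, among the genes drawn.

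Since HES and HEY genes are also active in glia and dividing cells, the 6 tested members were compared with the mean log2(CPM + 1) of glia and dividing cell markers over the 12 libraries, centred on the group means. Helt and Msc are among the 6; centring removes the difference that chose them, but 5 of the 6 Isl1CKO values of Helt are at or under the floor and carry little. None of the 12 correlations passed a permutation test within groups after Benjamini-Hochberg adjustment (smallest adjusted p = 0.708 for Pearson's r and 0.709 for Spearman's rho). The highest Pearson's r was that of Hes6 with dividing cell markers (r = 0.494, permutation p = 0.143; rho = 0.462, permutation p = 0.173), and leaving out the 2 libraries farthest from the marker median gave r = 0.375. Within groups it was 0.744 in controls and 0.367 in Isl1CKO libraries. Hes1 had the highest rho with the same markers (r = 0.456, permutation p = 0.149; rho = 0.466, permutation p = 0.130), with r = 0.619 when those 2 libraries were left out; within groups its r was 0.789 in controls and 0.234 in Isl1CKO libraries. Hey1 went the other way with the same markers (r = -0.382, permutation p = 0.276; rho = -0.427, permutation p = 0.201). With glia markers the highest Pearson's r was that of Hes6 (r = 0.364, permutation p = 0.295). Hes1 had r = 0.137 with glia markers (permutation p = 0.678). Within groups that r was 0.812 in controls and -0.339 in Isl1CKO libraries.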

How the data were processed

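RNA from 100 sorted tdTomato+ neurons per sample was made into libraries with a low-input kit and sequenced on an Illumina instrument, per the labels' protocols. The authors deposited whole-number counts per gene, not normalized; the submitters' processing notes name cutadapt 1.18, Bowtie 1.2.2, STAR 2.7.0c, featureCounts and GRCm38.p6. Their settings, the annotation and strand use are not given in the sources used here. Group name and number tied the 12 columns to samples. No library was a duplicate of another of its own group by a chi-square of counts, and pairs across the groups were not checked.

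Gene symbols (25620 of 25674 identifiers), positions and merged exon lengths came from GENCODE M21. The test was edgeR 4.0.16 (R 4.3.3): filterByExpr with a minimum count of 10, TMM scaling, robust quasi-likelihood F-test of Isl1CKO against control with no covariate, Benjamini-Hochberg adjustment over 14813 genes, threshold 0.05. SE is the log2 fold change divided by the square root of F. On simulated counts with 200 altered genes (190 tested among 14384 genes) it recovered 65.3%, with 6 false calls. Alternatives were DESeq2 1.42.0 (scaling and Wald test), limma 3.58.1 voom, other filters, a replicate block, a glia covariate and leaving out each library. Correlations used 100000 permutations. The members and all lists were chosen with earlier results of these data known. Named genes are the members, Isl1, up to 3 called genes per list by smallest p (1 such gene is not reported here), and the 3 genes most like Helt and Msc; others were named after their values were seen. No set test was run.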

Additional observations from a re-analysis of the deposited data

Results flagged for a closer look

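Of 20 group values checked, 1 for each gene and group, 5 had 1 library far from the other 5 (Dixon's 95% critical value); about 1 in 20 is flagged by chance. All 5 were at low levels. Helt in Isl1CKO 2 stood at 0.776 CPM, against 0 to 0.238 CPM in the other Isl1CKO libraries. Hey2 stood at 0.466 CPM in Isl1CKO 2, where the others had 0 to 0.0762 CPM, and at 2.14 CPM in control 5, where the others had 0 to 0.334 CPM. Heyl reached 6.89 CPM in control 4, against 0 to 1.43 CPM in the other controls. Bhlhe40 in Isl1CKO 4 stood at 0.523 CPM, with 0 to 0.0792 CPM in the others.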

How the results depend on the processing

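The count of called HES, HEY and BHLHE genes was 1 (Hes6) under both other scalings, both other filters, limma-voom, the glia covariate and without the 3 mixed-sex Isl1CKO libraries (those with both Xist and Y-linked transcripts), a setting chosen after seeing the data. It was 2, with Hey1 added, under the DESeq2 Wald test and with the replicate block, and 1 to 2 with 1 library left out. With the replicate block Hey1 stood at 0.76 on the log2 scale (edgeR adjusted p = 0.0465) the mesodermal list gave 1 call, and the call on Rorb was lost (edgeR adjusted p = 0.0632). Same-numbered samples had correlations of -0.0564 to 0.155 in their deviations from the group means. Of 6 Isl1CKO samples, 2 correlated best with their own number. These correlations gave little sign of pairing by number. With the block the SE of the log2 fold change was smaller for Hes6 and Hey1 and larger for Hes1 and Bhlhe41. Whether same-numbered samples shared a litter or a batch was not tested. The count over all genes was 1511, or 1450 with the block, 1178 to 1517 with 1 library left out and 767 without those 3 libraries, where fewer samples were tested. Pathway list genes called stayed within 1.5 times of the main count under every setting run (19 to 23 with 1 library left out). Hes6 passed in every setting run, with log2 fold changes of 0.50 to 0.62 with 1 library left out (edgeR adjusted p = 0.00279 to 0.0164). Among single genes and lists, apart from leaving out 1 library, 307 values stayed the same, 10 became stronger, 10 became weaker and 3 moved beyond the spread. For a tested gene, stronger or weaker means that it newly passed or no longer passed the threshold. For a list it means a count of called genes beyond 1.5 times the main count, up or down. Helt and Msc, which were not tested, were judged by the spread alone. No called value changed sign. Depth limits Hey2, Heyl and Bhlhe40, which had at most 3 counts in most libraries, and Hes5, which had at most 3 in 4 of the 6 Isl1CKO libraries.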
